A study of Mus musculus with 30 samples.

Results

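App and the genes of the enzymes that cut its protein were followed in the thyroid of C57BL/6 mice. They are 9 of the 50686 genes counted: App, the α-secretase gene Adam10, the β-secretase genes Bace1 and Bace2, and the γ-secretase genes Psen2, Ncstn, Aph1a, Aph1b and Psenen. They were chosen by name from a given list of App processing genes, and no measured value enters that rule. The 30 libraries were poly(A) RNA of thyroids from 10 groups of 3 mice. FAD4T and wild-type mice, males and females, were taken at 2 and at 8 months of age, which gives 8 groups. Wild-type males make up the other 2 groups, 1 of 18 months of age and 1 more of 2 months. No group was treated, and the labels do not say what FAD4T mice carry or which promoter drives it. The 2-month wild-type males have title numbers 1 to 6. Numbers 1 to 3 are called set 1 here and stand beside the FAD4T males, and numbers 4 to 6 are called set 2 and stand beside the 18-month males. This split follows the order of the groups in the study's design text and is not stated outright. Litters and dissection days are not labelled. Every p-value below therefore reflects only how much these particular mice varied.

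App encodes a membrane protein that is trimmed in steps. Either an α-secretase or a β-secretase sheds its ectodomain first, and γ-secretase then cuts the stub inside the membrane. The β cut followed by the γ cut releases amyloid-β, while the α cut falls within that peptide and precludes it. App is expressed far beyond the brain, in the thyroid too, where its shed ectodomain has been studied as a secreted product of follicular cells.

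The coding bases around the amyloid-β part of mouse App are shown because all 3 kinds of secretase cut there. They come from the GENCODE transcript App-201 and lie at chr16:84962782-84965732 on the minus strand of GRCm38, in exons 14 and 15. The 50 codons start 4 before amyloid-β, and capitals mark the codons on each side of the β cut (before codon 1), the α cut (between codons 16 and 17) and the γ cuts after codons 40 and 42.

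App amyloid-β coding region: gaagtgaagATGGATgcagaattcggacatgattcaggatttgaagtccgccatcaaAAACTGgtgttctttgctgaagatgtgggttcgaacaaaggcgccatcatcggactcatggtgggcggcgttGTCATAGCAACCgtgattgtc

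The counts were made on mouse gene models, so a transcript of foreign sequence is counted in App only as far as its reads align to the mouse gene.

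App (ENSMUSG00000022892) spans 84954440 to 85173707 of chromosome 16. Adam10 (ENSMUSG00000054693, chromosome 9, 70678997 to 70780229) encodes a membrane metalloprotease that also sheds Notch receptors. Bace1 (ENSMUSG00000032086, chromosome 9, 45838580 to 45864399) encodes the aspartyl protease that makes the β cut, and Bace2 (ENSMUSG00000040605, chromosome 16, 97356728 to 97439012) its close relative, which mostly cuts App within amyloid-β. Psen2 (ENSMUSG00000010609, chromosome 1, 180227004 to 180263438) encodes a presenilin, the catalytic subunit of γ-secretase. Ncstn (ENSMUSG00000003458, chromosome 1, 172066013 to 172082795) encodes nicastrin, its large substrate-gating subunit. Aph1a (ENSMUSG00000015750, chromosome 3, 95893969 to 95898288) and Aph1b (ENSMUSG00000032375, chromosome 9, 66775202 to 66795490) encode alternative scaffold subunits. Psenen (ENSMUSG00000036835, chromosome 7, 30561863 to 30563627) encodes the small subunit that lets presenilin mature.

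Reads were counted without regard to strand, so genes on the opposite strand can take or lose reads of some members. Bace1 shares 32.5% of its 6348 exon bases with Rnf214 and a pair of other opposite-strand genes, Aph1a 12.9% with Car14, Psenen 9.33% with U2af1l4 and Gm49396, and Ncstn 4.91% with Copa. App, Adam10, Bace2, Psen2 and Aph1b share none. Aph1b has a near-identical neighbour in the mouse, Aph1c. Their coding sequences (Aph1b-201 and Aph1c-202 of GENCODE) were identical at 742 of 774 aligned bases (95.9%), with one identical stretch of 341 bases. The 90 coding bases in which they differed most, at 12 positions in capitals, show where reads can tell them apart. They lie at chr9:66795273-66795362 for Aph1b and chr9:66834506-66834595 for Aph1c, both on the minus strand of GRCm38.
Aph1b: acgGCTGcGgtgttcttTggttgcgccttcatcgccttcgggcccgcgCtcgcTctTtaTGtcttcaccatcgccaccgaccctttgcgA
Aph1c: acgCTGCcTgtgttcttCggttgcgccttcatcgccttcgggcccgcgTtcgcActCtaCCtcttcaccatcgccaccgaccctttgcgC
Aph1c took 15.9% to 45.8% of the counts of both genes together, with a median of 26.5%. Aph1b is therefore given as uncertain, and its tests were repeated on the summed counts.

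Promoter windows of RefSeq (GRCm38.p6) were at hand for 6 members upstream of their gene models. App, Adam10 and Psenen are printed, because App was the most abundant member and Adam10 and Psenen moved in opposite directions in the libraries. Capitals mark the GC box (GGGCGG), the CCAAT box and the TATA box (TATAAA), each searched as these letters on both strands.
App, chr16:85173708-85173957, minus strand: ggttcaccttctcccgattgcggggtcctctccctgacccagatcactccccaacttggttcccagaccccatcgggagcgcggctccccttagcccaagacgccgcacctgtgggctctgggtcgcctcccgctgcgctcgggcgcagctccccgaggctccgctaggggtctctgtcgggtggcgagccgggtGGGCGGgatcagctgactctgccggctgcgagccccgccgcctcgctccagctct
Adam10, chr9:70678732-70678981, plus strand: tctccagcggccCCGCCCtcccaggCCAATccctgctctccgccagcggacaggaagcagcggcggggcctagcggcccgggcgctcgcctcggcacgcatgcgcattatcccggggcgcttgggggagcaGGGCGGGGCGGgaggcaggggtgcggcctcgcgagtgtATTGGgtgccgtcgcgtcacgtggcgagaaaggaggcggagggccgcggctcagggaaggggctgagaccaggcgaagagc
Psenen, chr7:30563628-30563877, minus strand: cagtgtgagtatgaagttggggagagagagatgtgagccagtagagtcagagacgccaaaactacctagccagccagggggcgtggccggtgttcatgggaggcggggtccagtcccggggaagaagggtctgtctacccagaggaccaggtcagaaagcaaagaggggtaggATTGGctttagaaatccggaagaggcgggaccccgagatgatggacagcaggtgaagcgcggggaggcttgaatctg
App held 1 GGGCGG, Adam10 3 GGGCGG, a pair of them overlapping, and 2 CCAAT, and Psenen 1 CCAAT. None of the 3 windows held TATAAA. Of 32851 mouse promoter windows of 250 bases, 32.7% held GGGCGG, 33.8% CCAAT and 12.4% TATAAA. G and C made up 70.8% of the App window, 74% of Adam10 and 58.4% of Psenen, against a median of 52.4% over all windows. These matches describe the letters only.

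Each library held 14083958 to 20256049 counts. The labelled tissue was checked by its defining transcript. Tg, the gene of thyroglobulin and the most specific product of follicular cells, took 4.64% to 27.0% of the counts. It was under 10% in 5 libraries, all of 2 months: FAD4T male replicates 2 and 3, FAD4T female replicates 1 and 2, and wild-type female replicate 1. In the first 4 of these, 9 thymocyte markers summed to 105 to 400 CPM, and in the last to 55.0 CPM, against 12.9 to 26.9 CPM in the other libraries of 2 months. CPM are read counts scaled to a common library total. The 4 parathyroid markers summed to 51.1 to 65780 CPM over the 30 libraries, the highest in wild-type female replicate 1 of 2 months. The same 5 libraries held 4.07% to 6.72% mitochondrial counts, against 1.94% to 5.22% in the other libraries of 2 months. Of the latter, set 2 replicate 6 was highest, and set 2 replicate 4 came next at 3.50%. The part of these differences in the members' values was not tested beyond the fits without these libraries given below. In bulk tissue, fewer cells of a type and less RNA per cell cannot be told apart.

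All 9 members were well above the low-count filter in every fit. Compared per kilobase of exon (RPKM, the median of 30 libraries), App was highest at 316, followed by Psenen at 43.1, Ncstn at 35.1, Bace2 at 18.7, Aph1a at 17.3 and Adam10 at 13.8. Bace1 (7.85), Psen2 (5.10) and Aph1b (2.52) were lowest. The ratio of Bace2 to Bace1 in RPKM was 2.38 ± 1.02 (SD, n = 30) and ran from 0.747 to 5.44. At 8 months it was 2.88 ± 0.164 and 3.39 ± 0.313 in FAD4T and wild-type males and 1.59 ± 0.0875 and 2.15 ± 0.557 in the females. Aph1a exceeded Aph1b in all 30, by 4.72 to 13.7 times. Psen2 was the steadiest member, with levels from 17.9 to 29.4 CPM, a 1.64-fold range. Bace2 was the widest, from 13.0 to 114 CPM, an 8.77-fold range.

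**Figure D1:**
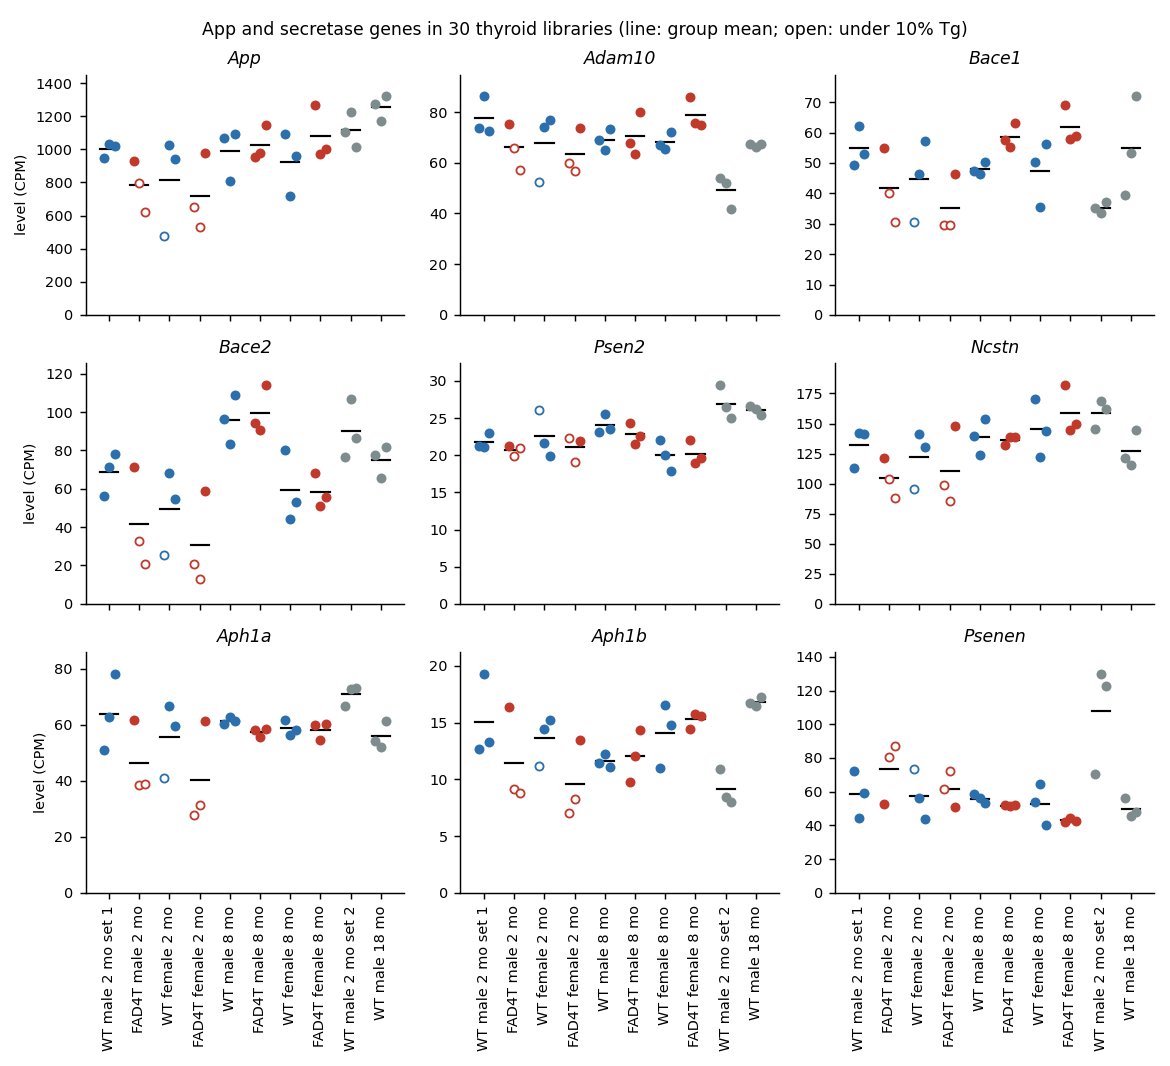
Levels of the 9 genes in CPM (vertical axis, from 0) in the 30 libraries by group; each point is 1 library, lines are group means, red is FAD4T, blue wild type, grey the set 2 and 18-month wild-type males, and open points hold under 10% Tg. The 5 open points are lowest for Bace2, Ncstn and Aph1a, while Psen2 lies between 17.9 and 29.4 CPM throughout.

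The mean level of App in the 10 groups went from 720.5 ± 231 CPM (SD, n = 3 throughout) in FAD4T females of 2 months to 1255 ± 77.1 CPM in wild-type males of 18 months. In rising order it was 781 ± 155 in FAD4T males of 2 months, 817 ± 295 in wild-type females of 2 months, 923 ± 188 in wild-type females of 8 months and 988 ± 156 in wild-type males of 8 months. It was then 1001 ± 44.3 in set 1 of the wild-type males of 2 months, 1026 ± 106 in FAD4T males of 8 months, 1078 ± 162 in FAD4T females of 8 months and 1114 ± 106 in set 2. Only the last step of this order, from set 2 to 18 months, was larger than the larger SD of its 2 groups. The other members were as hard to order: of their 9 neighbouring steps, 2 exceeded the larger SD for Psenen, 1 each for Adam10, Psen2 and Aph1b, and 0 for Bace1, Bace2, Ncstn and Aph1a. For Adam10 and Psenen that step set off set 2 of the 2-month wild-type males, which was lowest in Adam10 (49.2 ± 6.60 CPM) and highest in Psenen (108 ± 32.4 CPM).

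No member passed the test between FAD4T and wild-type thyroids. This held for edgeR's quasi-likelihood test (Benjamini-Hochberg adjusted p under 0.05 over 18493 genes) in males and females of 2 and 8 months and for the mean of the 4 comparisons. Over all genes, 0% were called in males of 2 months, 0% in females of 2 months, 0% in males of 8 months, 0.0216% in females of 8 months and 0% in the mean. At an unadjusted p under 0.05 the count was also 0 of 9 in each of these 5 comparisons, where 14.5%, 16.7%, 1.81%, 4.66% and 15.4% of all genes had one, and DESeq2 called 0 members as well. The smallest adjusted p among members was 0.326. The widest intervals were those of Bace2, from -1.70 to 0.27 in males of 2 months on the log2 scale.

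App itself, the substrate, was at 928, 797 and 619 CPM in FAD4T males of 2 months and at 950, 1032 and 1021 CPM in wild-type males of set 1. All 3 FAD4T values were below the wild-type ones (log2 fold change -0.35, 95% interval -0.90 to 0.20, edgeR adjusted p = 0.468). The share of all genes without overlap was not counted, here or in the comparisons below. In females of 2 months App was at 652, 531 and 978 CPM against 479, 1028 and 942 CPM, and the groups overlapped (log2 -0.18, -0.73 to 0.37). At 8 months the males were at 954, 977 and 1147 CPM against 1066, 808 and 1090 CPM (log2 0.07, -0.48 to 0.62). The females of 8 months were at 1264, 970 and 999 CPM against 1091, 719 and 958 CPM (log2 0.23, -0.32 to 0.78). The groups overlapped at 8 months in both sexes, and over the 4 comparisons the mean log2 fold change was -0.06 (-0.33 to 0.22).

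**Figure D2:**
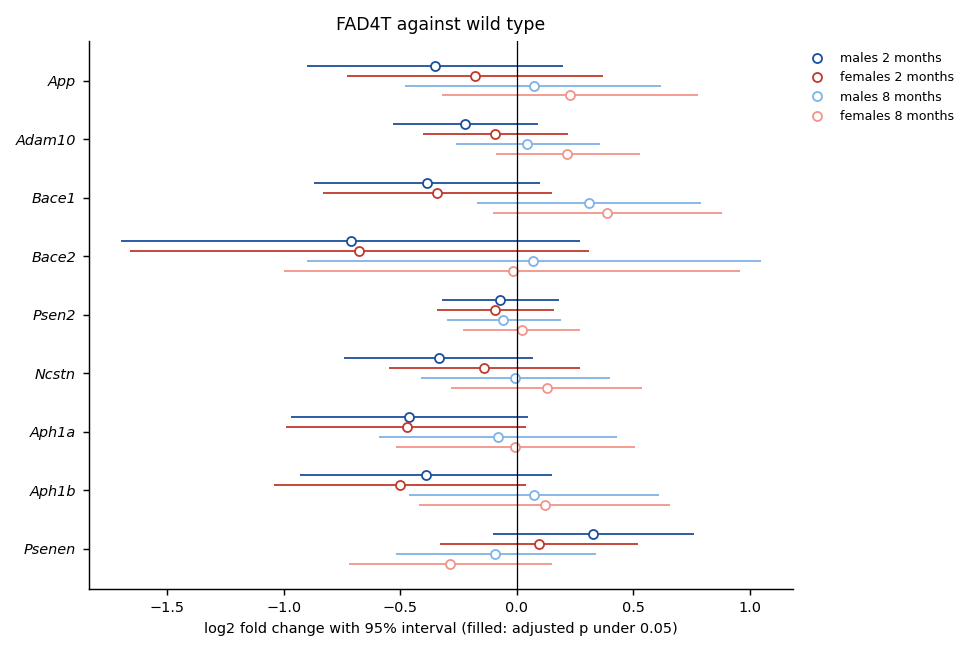
Log2 fold change of FAD4T over wild type (horizontal axis) with its 95% interval for the 9 genes in the 4 sex and age comparisons; open points have an adjusted p above 0.05. All points are open, and all intervals reach 0. The widest are those of Bace2.

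At 2 months, 8 of the 9 members had negative log2 fold changes in males (median -0.35 over the 9, 0.02 over all genes) and 8 of 9 in females (median -0.18, all genes -0.02). Psenen was the exception in both. Bace2, which cuts App mostly within amyloid-β, showed the split most clearly. It lay at 71.2, 32.9 and 21.0 CPM in FAD4T males of 2 months against 56.4, 71.6 and 78.1 CPM in wild type, and at 20.9, 13.0 and 58.8 CPM in FAD4T females against 25.5, 68.4 and 54.7 CPM in wild type. In each FAD4T group 1 library was at the wild-type level and 2 were far below it, and 1 wild-type female was low as well (log2 -0.71 ± 0.47 SE in males and -0.67 ± 0.47 in females, edgeR adjusted p = 0.415 and 0.45). The low values were those of the 5 libraries with under 10% Tg. Aph1a, a γ-secretase scaffold, followed the same libraries, at 61.6, 38.6 and 38.7 CPM in FAD4T males and 51.0, 62.7 and 78.0 CPM in wild type.

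Over all 30 libraries the 5 with little Tg did not overlap with the other 25 in Bace2 (13.0 to 32.9 against 44.5 to 114 CPM), Ncstn (85.5 to 104 against 113 to 182 CPM) or Aph1a (27.8 to 41.1 against 51.0 to 78.0 CPM). The share of all genes that separate these libraries was not counted, so the separation is not shown to be particular to the members. App (479 to 797 against 719 to 1320 CPM) and Bace1 (29.5 to 40 against 33.4 to 71.9 CPM) were low in them with some overlap. Psen2, the presenilin, was not lower there (19.1 to 26.1 against 17.9 to 29.4 CPM), and Psenen was at 61.6 to 87.0 CPM against 40.4 to 130 CPM. With the 5 libraries left out, 1 FAD4T library remained in each sex at 2 months, and its spread was taken to be that of the other groups. The median log2 fold change of the 9 members was then -0.02 in males and -0.01 in females. App went to -0.09 and 0.02 and Bace2 to 0.07 and -0.04. Leaving out instead the 5 libraries richest in thymocyte transcripts, which are the 4 FAD4T ones named above and replicate 1 of the FAD4T males of 8 months, gave App -0.09 in males and 0.29 in females. The result in females depended on 1 library in the other direction too. Without FAD4T female replicate 3 of 2 months, Bace2 (log2 -1.56, adjusted p = 0.0292), Aph1a (-0.93, 0.0165) and Aph1b (-0.85, 0.0373) passed as lower by edgeR. In that fit 3001 genes passed in either direction. Set against set 2 in place of set 1, FAD4T males of 2 months passed in 4 members, with Adam10 higher (log2 0.43, edgeR adjusted p = 0.0302, from -0.22 against set 1) and Psen2 (-0.38, 0.0171), Ncstn (-0.61, 0.0171) and Aph1a (-0.61, 0.0428) lower. In that comparison 4757 of 18799 genes passed. What part the makeup of these libraries had in the FAD4T differences was not tested beyond these fits.

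**Figure D3:**
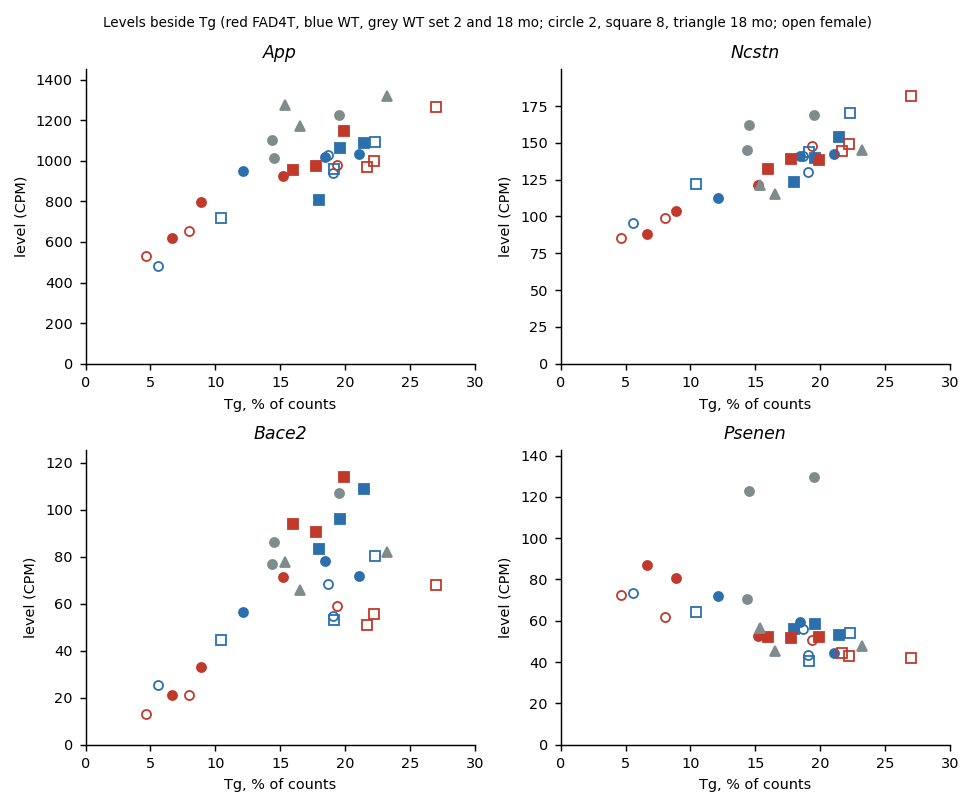
Levels of App, Ncstn, Bace2 and Psenen in CPM (vertical axes, from 0) against the share of counts taken by Tg (horizontal axis, percent) in the 30 libraries; red is FAD4T, blue wild type, grey set 2 and 18 months, circles 2, squares 8 and triangles 18 months, open symbols females. App, Ncstn and Bace2 climb with Tg and Psenen does not; the 2 highest Psenen points are set 2 libraries.

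Within groups, that is with each group's mean removed from log2(CPM + 1), the correlation with the Tg share over the 30 libraries was 0.95 for Ncstn, 0.90 for App, 0.88 for Bace2, 0.87 for Bace1, 0.79 for Aph1a and 0.76 for Adam10. It was 0.48 for Aph1b, -0.12 for Psen2 and -0.59 for Psenen. These points share the library's tissue makeup and total. App moved with Bace2 and Ncstn in the same way (r = 0.90 for each), and Bace2 with Ncstn (0.93). Psenen ran against Bace1 (-0.72) and Adam10 (-0.70). By the same measure, the genes most like App among 11488 were Elovl7, Atp1b1 and Spata13 (r = 0.953 to 0.950). Those most like Bace2 were Rac1, Cd151 and Cdh16 (0.974 and above), the last of these a cadherin of follicular and kidney epithelium. Ncstn was closest to Sord and Aldh3a2 (0.959 each), Psenen to Ppdpf and Ubl5 (0.951 and 0.942), Adam10 to Ppp2r5e (0.941) and Bace1 to Snx27 (0.927). Aph1a was closest to Ykt6 (0.971), Aph1b to Cnot6l (0.900) and Psen2 to Hexim2 (0.727), the weakest best match of the 9.

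At 8 months Bace1 was the member with the largest positive FAD4T value in both sexes, and it did not pass. FAD4T males were at 57.6, 55.3 and 63.2 CPM against 47.5, 46.3 and 50.3 CPM in wild type (log2 0.31, -0.17 to 0.79). FAD4T females were at 69.0, 57.7 and 59.0 CPM against 50.4, 35.4 and 56.4 CPM (log2 0.39, -0.10 to 0.88). All FAD4T values were above all wild-type values in each sex, with an adjusted p of 1 in both by edgeR. Adam10 in the females (all FAD4T values higher) and Aph1a in the males (all lower) did not overlap at 8 months either. The share of all genes without overlap was not counted, so the separation is not shown to be particular to Bace1. In these females some marker lists separated the genotypes too. The 5 kidney markers summed to 0.0675 to 0.0734 CPM in FAD4T and 8.36 to 12.3 CPM in wild type. The 8 skeletal muscle markers summed to 14.05 to 25.1 CPM in FAD4T and 464 to 4723 CPM in wild type. The FAD4T values of these females also differed by gene length. Among protein-coding genes of at least 5 CPM, the median log2 fold change was -0.24 for 798 genes with under 1500 exon bases. It was 0.08 for 4840 genes with over 5000, and Bace1 has 6348. In males of 8 months the medians of these classes were -0.04 and 0.03. The part of tissue makeup or gene length in the Bace1 values was not tested. At 2 months the Bace1 log2 fold changes were -0.38 and -0.34. The difference of the FAD4T effect between the ages was 0.69 ± 0.33 in males and 0.73 ± 0.33 in females (edgeR adjusted p = 0.735 and 0.596, unadjusted 0.0475 and 0.0383). Among the 36 interaction values of the 9 members (between sexes at each age and between ages in each sex), these 2 were the only ones with an unadjusted p under 0.05, and 0% of all genes passed in any of these 4 tests. Over all genes, an unadjusted p under 0.05 was found for 4.02% and 2% between the sexes at 2 and 8 months and for 4.99% and 8.22% between the ages in males and females. Without the libraries under 10% Tg, which removes most 2-month FAD4T libraries, the Bace1 differences were 0.28 in males and 0.51 in females, and without the thymocyte-rich libraries 0.28 and 0.30, and no member passed.

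Wild-type males of 18 months differed from the 2-month males of set 2 in 5 of the 9 genes, a share to be read against the 35.9% of all genes called in this comparison of 6 libraries. Aph1b, Adam10 and Bace1 rose (17.1% of all genes did), and Psenen and Aph1a fell (18.8% did). Psenen, the small γ-secretase subunit, was at 56.3, 45.3 and 47.9 CPM at 18 months and at 70.5, 130 and 123 CPM at 2 months. All 18-month values were below all 2-month values (log2 -1.15 ± 0.23 SE, edgeR adjusted p = 0.00758). Aph1b was at 16.7, 16.5 and 17.2 CPM against 10.9, 8.47 and 8.01 CPM, with no overlap (log2 0.84 ± 0.17, adjusted p = 0.00693 by edgeR). On the summed counts of Aph1b and Aph1c the log2 fold change was 0.67 (adjusted p = 0.0105).

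Adam10, the α-secretase, was at 67.5, 66.4 and 67.4 CPM at 18 months against 53.8, 52.2 and 41.7 CPM (log2 0.41 ± 0.12, edgeR adjusted p = 0.0311). Bace1 was at 39.4, 53.4 and 71.9 CPM against 35.2, 33.4 and 37.0 CPM (log2 0.60 ± 0.20, edgeR adjusted p = 0.0446), with the 18-month mice spread over a wider range than the 2-month mice. Aph1a was at 54.3, 51.9 and 61.3 CPM against 66.7, 72.7 and 73.2 CPM (log2 -0.38 ± 0.11, edgeR adjusted p = 0.0267). In these 3 genes too the groups did not overlap, nor did they in Ncstn, which missed the threshold. The share of all genes without overlap was not counted. Ncstn (122, 115 and 145 against 145, 169 and 162 CPM) did not pass (log2 -0.36, adjusted p = 0.0610), nor did Bace2 (-0.30, 0.149), App (0.13, 0.533) and Psen2 (-0.08, 0.642). The calls of Psenen and Aph1b held with any 1 of the 6 libraries left out. Adam10 kept its call only without set 2 replicate 4 (adjusted p up to 0.0793 otherwise), Bace1 only without 18-month replicate 1 (up to 0.124), and Aph1a lost it without set 2 replicate 5 or 6 or 18-month replicate 1 or 2 (up to 0.123). Aph1a also missed the threshold with DESeq2 (adjusted p = 0.0648), with no filter on low counts (0.0835) and with all 30 libraries in 1 fit (0.242). The App to Ncstn ratio of RPKM was 12.6 ± 0.92 at 18 months and 8.93 ± 0.897 in set 2, and the other 8 groups lay between 8.02 and 9.70.

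These age differences depended on which 2-month males were the baseline. Set 2 and set 1 carry the same genotype, sex and age, yet differed in 21.6% of all genes and in 3 of the 9 members, in the direction opposite to that of age. Of all genes, 10.2% were higher and 11.5% lower in set 2. Set 2 was lower than set 1 in Adam10 (53.8, 52.2 and 41.7 against 73.6, 86.2 and 72.7 CPM, log2 -0.65, edgeR adjusted p = 0.00204) and in Aph1b (log2 -0.72, adjusted p = 0.0357). Psenen was higher in set 2 (70.5, 130 and 123 against 72.0, 44.6 and 59.3 CPM, log2 0.88, edgeR adjusted p = 0.00686). The Psenen values of the sets overlapped, and the others did not. The Aph1b call was lost without set 1 replicate 2 or 3 or set 2 replicate 5 or 6 (adjusted p up to 0.248). Bace1 (-0.64, 0.0505) and Psen2 (0.31, 0.0566) lay just short of the threshold. The comparisons share the set 2 libraries, so their opposite signs are not independent of each other.

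Set against set 1 in place of set 2, none of the 5 members that had changed at 18 months passed. The log2 fold changes were then -0.21 for Adam10, 0.00 for Bace1, -0.20 for Aph1a, 0.16 for Aph1b and -0.23 for Psenen, with adjusted p from 0.385 to 1. Wild-type males of 18 against 8 months gave 0 of 9 by edgeR and by DESeq2 (6.35% of all genes by edgeR), with 1 member, Aph1b, at an unadjusted p under 0.05 (22% of all genes). Aph1b was at 16.7, 16.5 and 17.2 CPM against 11.4, 12.3 and 11.1 CPM with no overlap (log2 0.54 ± 0.24, adjusted p = 0.189), and the set cannot be told apart from the age there.

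**Figure D4:**
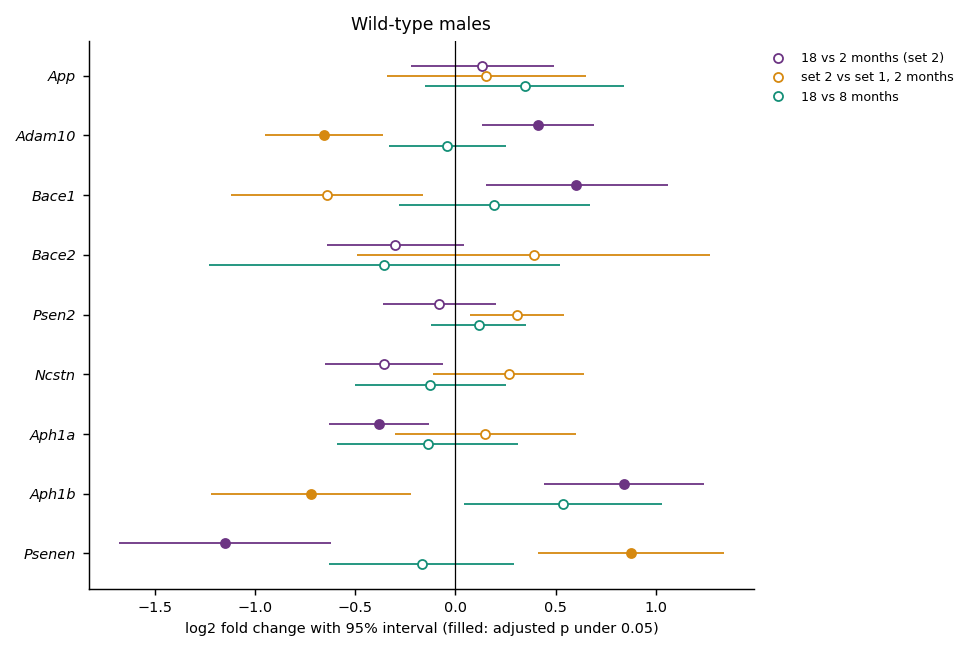
Log2 fold change (horizontal axis) with its 95% interval for the 9 genes in wild-type males: 18 against 2 months (set 2), set 2 against set 1 at 2 months, and 18 against 8 months; filled points have an adjusted p under 0.05. The filled points of Adam10, Aph1b and Psenen have opposite signs in the first 2 comparisons, and no point is filled in the third.

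The 2 sets of 2-month males also differed by gene length. Among protein-coding genes of at least 5 CPM, the median log2 fold change of set 2 over set 1 was 0.59 for 800 genes with under 1500 exon bases and -0.25 for 4840 genes with over 5000. At 18 against 2 months it was -0.83 and 0.27 in the same classes, and at 18 against 8 months -0.26 and 0.14. Psenen is the shortest member with 1275 exon bases, and Bace1 (6348), Aph1b (5163) and Adam10 (4913) are the longest. The remaining members, of 3128 to 4332 exon bases, ran from -0.38 (Aph1a) to 0.13 (App) at 18 against 2 months. The median of genes with 3000 to 5000 exon bases was -0.03 there. Several marker lists also separated the sets. The 8 adipocyte markers summed to 222 to 590 CPM at 18 months, 1991 to 2494 CPM in set 2 and 698 to 1041 CPM in set 1. The 8 liver markers summed to 1.56 to 3.06 CPM at 18 months, 12.2 to 20.5 CPM in set 2 and 1.98 to 4.66 CPM in set 1. Skeletal muscle markers (4109 to 31040 against 10.5 to 3453 CPM) and B and plasma cell markers (4.89 to 11.8 against 1.22 to 4.42 CPM) were higher in set 2 than in set 1. Whether length or tissue makeup had a part in the members' differences was not tested.

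**Figure D5:**
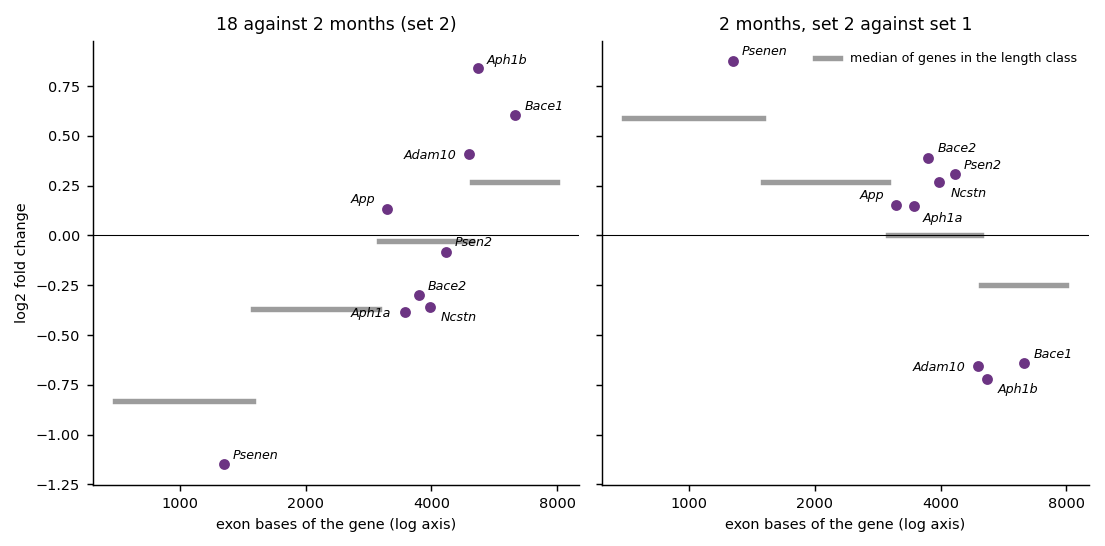
Log2 fold change (vertical axes) against exon length of the gene (bases, log axis) for 18 against 2 months and for set 2 against set 1; points are the 9 genes and grey bars the median of all other protein-coding genes in a length class, the outer bars drawn to fixed ends. The bars climb with length in the first panel and fall in the second, and Psenen and the 3 longest members lie at opposite ends.

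From 2 to 8 months no member passed in wild-type males or in wild-type females (0.692% and 0.254% of all genes called), by edgeR or by DESeq2, with 0 of 9 in each at an unadjusted p under 0.05 (11.7% and 8.55% of all genes). In the males this depended on the baseline. Against set 2, Adam10 was higher at 8 months (log2 0.49, edgeR adjusted p = 0.0189, from -0.16 against set 1) and Psenen lower (-0.94, 0.00533, from -0.06), among 3494 of 18799 genes called. In FAD4T males none passed by edgeR (1.57% of genes), 4 had an unadjusted p under 0.05 (28.3% of all genes), and DESeq2 called Bace2 (log2 1.27, adjusted p = 0.0466) among 1716 of 18552 genes. By edgeR the Bace2 value was 1.28, and it was 0.49 without the libraries under 10% Tg (adjusted p = 0.682) and 0.52 without the thymocyte-rich ones (1). In FAD4T females Bace1 rose (10.1% of genes called, 4.15% higher), from 29.5, 29.6 and 46.5 CPM to 69.0, 57.7 and 59.0 CPM, with no overlap (log2 0.84 ± 0.23, edgeR adjusted p = 0.0350). The call ended without FAD4T female replicate 1 or 2 of 2 months or any 1 of the 8-month replicates (adjusted p from 0.0679 to 0.186). It also ended without the libraries under 10% Tg (log2 0.41, adjusted p = 0.757) or without those rich in thymocyte transcripts (0.41, 1), which leave 1 FAD4T female of 2 months. Without replicate 3 of 2 months, by contrast, 8 of the 9 members passed, all but Psen2, among 6703 of 18934 genes.

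Averaged over both genotypes and sexes, a comparison added after the single ones were seen, 8-month thyroids differed from 2-month ones in 4 members against a background of 32.6% of genes, 15.8% higher and 16.8% lower. Ncstn (log2 0.33 ± 0.10, edgeR adjusted p = 0.0169), Bace2 (0.74 ± 0.23, 0.0229) and Bace1 (0.32 ± 0.12, 0.0419) rose and Psenen fell (-0.28 ± 0.10, 0.0419). Without the 5 libraries under 10% Tg, all of which are of 2 months, 0 of 9 passed and the values were 0.12, 0.23, 0.06 and -0.05. Without the thymocyte-rich ones, 0 passed as well (0.16, 0.32, 0.11 and -0.10). With any 1 of the 24 libraries left out, Ncstn and Bace2 kept their calls in all 24 fits, Bace1 in 8 and Psenen in 6. Liver transcripts also separated the ages: 8 markers summed to 186 to 602 CPM at 8 months and to 1.73 to 24.9 CPM at 2 months, with wild-type female replicate 1 at 3371 CPM.

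No member passed between males and females, in wild type at 2 months or 8 months (0.0757% and 0.27% of all genes called) or averaged over ages and genotypes (1.88%), by edgeR or by DESeq2. At an unadjusted p under 0.05 there were 0 at 2 months, 1 (Psen2) at 8 months and 1 (Bace2) in the average, against 6.69%, 5.09% and 13.1% of all genes. At 8 months Bace2 lay at 96.2, 83.2 and 109 CPM in wild-type males and 94.1, 90.7 and 114 CPM in FAD4T males. It lay at 80.3, 44.5 and 52.9 CPM in wild-type females and 68.1, 51.1 and 55.7 CPM in FAD4T females. All 6 males were above all 6 females (log2 0.73 ± 0.33 averaged over genotypes, adjusted p = 0.395 by edgeR, where 1.41% of genes were called). The share of all genes that separated the sexes without overlap was not counted, so this is not shown to be particular to Bace2. Of 15 marker lists, kidney and fibroblast also separated the sexes at 8 months without overlap. The 5 kidney markers summed to 15.5 to 39.3 CPM in males, 8.36 to 12.3 CPM in wild-type females and 0.0675 to 0.0734 CPM in FAD4T females. The 5 fibroblast markers summed to 301 to 538 CPM in males and 571 to 899 CPM in females. The part of these lists in the difference was not tested. Psen2 was the other member with an unadjusted p under 0.05 in that average (log2 0.22, adjusted p = 0.279), as 11.7% of all genes did. Averaged over the 4 strata, Bace2 had a log2 fold change of 0.59 (edgeR adjusted p = 0.264), 0.47 without the libraries under 10% Tg (0.0577), and passed only without FAD4T female replicate 3 of 2 months (0.81, 0.0387).

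Among 55 further genes of the pathway, listed by role, 52 were matched and tested. In the FAD4T comparisons 0 of the 52 passed, by edgeR, in either sex or age or in the mean. At 18 against 2 months 19 passed (36.5% of the 52, 35.9% of all genes), 12 higher and 7 lower. Of 12 substrates of these secretases, 5 rose and 0 fell (median log2 0.37, all genes -0.01), where 17.1% of all genes rose and 18.8% fell. The median of genes with over 5000 exon bases was 0.27, and the substrates were not sorted by length. The rises were led by the receptors Notch1 (59.3 ± 7.17 against 18.4 ± 6.82 CPM, log2 1.69, edgeR adjusted p = 0.00313) and Notch2 (0.73, 0.00683). Of 13 partners and regulators, 3 rose and 2 fell. Timp3, an inhibitor of metalloproteases, rose (756 ± 39.8 against 277 ± 68.3 CPM, log2 1.45, edgeR adjusted p = 0.00165), as did Adam9, a protease related to Adam10 (0.82, 0.00195), and Tspan17, a tetraspanin that binds Adam10, fell (-0.79, 0.00570). Of 22 adaptors, sorting and clearance genes, 3 rose and 4 fell, among them Itm2b (-0.60, 0.0146) and Lrp10 (-0.47, 0.0251). Of the App homologues, Aplp1 fell (-0.65, 0.0197). At 18 against 8 months 2 of the 52 passed by edgeR (3.85%, against 6.35% of all genes). They were Apba3 (0.50, 0.0321) and Jag1 (0.61, 0.0420), both higher, and none of the genes named here for 18 against 2 months was among them. The pathway genes were not tested at 18 months with set 1 as the baseline.

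Set 2 against set 1 again showed several of these with the opposite sign, on shared libraries: Notch1 (-1.43, edgeR adjusted p = 0.00636) was lower and Lrp10 higher (0.52, 0.00986), among 13 of 52 called (25%, against 21.6% of all genes). From 2 to 8 months in wild-type males the Notch ligand Jag1 (24.9 ± 5.62 against 53.3 ± 7.55 CPM, log2 -1.10, edgeR adjusted p = 0.00311) and the receptor Notch3 (-0.93, 0.0117) fell and 0 of 52 rose (3.85% called, against 0.692% of all genes). Jag1 was lower in set 2 than in set 1 too (-1.22, 9.21e-05). In FAD4T females Erbb4 (1.07, 0.0140), Adam9 (0.75, 0.0428) and Lrp10 (0.50, 0.0428) rose from 2 to 8 months by edgeR (5.77% of the 52, against 10.1% of all genes). These 3 calls ended without the thymocyte-rich libraries, where 0 of 19362 genes passed, and 74 of 19195 passed without those under 10% Tg. The clearance receptor gene Lrp1 was lower in males than in females, averaged over the 4 strata (83.9 ± 9.44 against 112 ± 10.7 CPM, log2 -0.42, edgeR adjusted p = 0.00105), 1 of 52 called (1.92%, against 1.88% of all genes). At 8 months, where its log2 fold change was -0.47, the fibroblast markers were lower in all 6 males than in all 6 females, as given above, and their part in it was not tested.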

How the data were processed

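The deposited files hold counts of read pairs per gene, made by the authors with featureCounts 1.6.0 over exons of the Ensembl release 88 annotation of GRCm38, without a strand option, per the file headers. Different tools (HISAT2 2.0.4, StringTie 1.3.4d, cutadapt 1.9) and a different build (GRCm39) appear in the submitters' processing notes. Libraries were made with the dUTP method, per the labels. Totals were 14083958 to 20256049 counts. No 2 libraries were identical. Counts were tested with edgeR 4.0.16 in R 4.3.3 (TMM, filterByExpr with a minimum count of 10, glmQLFit, glmQLFTest, Benjamini-Hochberg over all genes at 0.05). Fits used the 24 libraries of the FAD4T set (18493 genes, 16 residual degrees of freedom), the 6 of the ageing set (16283 genes, 4) or all 30 (18799 genes, 20). CPM in the text are TMM-scaled over all 30 libraries. Fold changes have a prior count of 0.125, and SE is their size over the root of F. DESeq2 1.42.0 was an alternative. The code was tested on simulated counts.

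Named genes were the 9 members, up to 4 rises and 4 falls of the pathway lists per comparison and the genes most correlated with each member. No measured value enters the rule for the members, but the list of members, the pathway lists and the tests were drawn up with earlier results of these data known. The averages over strata, the length classes and the fits without low-Tg or thymocyte-rich libraries were chosen after seeing the data. Of the 55 listed pathway genes, Apbb3, Nrdc and Hm13 were not matched by symbol.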

Additional observations from a re-analysis of the deposited data

How the results depend on the processing

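Of 3360 values of single members under other settings, 3034 kept their direction and side of the threshold, 78 lost a call, 35 gained one and 210 changed sign without a call. Only Adam10 reversed after or into a call, each time with the other 2-month wild-type males: 0.43 in FAD4T males of 2 months, -0.21 at 18 against 2 months and 0.49 at 8 against 2 months in wild-type males. The cause was not tested.

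The number of members called moved as follows. With the other 2-month wild-type males it was 4 for FAD4T males of 2 months, 0 at 18 against 2 months and 2 at 8 against 2 months in wild-type males, beside 4757, 1776 and 3494 of 18799 genes. DESeq2 called 1 at 8 against 2 months in FAD4T males, 2 in FAD4T females and 5 between the sets, beside 1716 and 3625 of 18552 and 4696 of 19085 genes. The compared groups alone gave 0 at 8 against 2 months in FAD4T females (62 of 16320 genes) and 1 at 18 against 8 months (1866 of 16586). Without thymocyte-rich libraries and without those under 10% Tg it was 0 at 8 against 2 months in FAD4T females and 0 in the mean of 4 strata, where no filter on low counts gave 2. With 1 library left out it ran from 0 to 3 for FAD4T females of 2 months, 0 to 1 for the FAD4T mean, 2 to 5 at 18 against 2 months, 0 to 3 and 0 to 8 at 8 against 2 months in FAD4T males and females, 2 to 3 between the sets, 0 to 1 for sex and 2 to 6 at 8 against 2 months in the mean of 4 strata. The highest counts for FAD4T females of 2 months, the FAD4T mean, 8 against 2 months in FAD4T females and sex came without FAD4T female replicate 3 of 2 months, beside 3001, 1300, 6703 and 346 of 18934 genes in that order. Over all genes, the calls with 1 library left out ran from 3651 to 5470 at 18 against 2 months and from 2386 to 4335 between the sets. At 8 against 2 months they ran from 12 to 3918 in FAD4T males, 4 to 6703 in FAD4T females and 4598 to 8126 in the mean of 4 strata. They ran from 0 to 3001 for FAD4T females of 2 months, 0 to 1300 for the FAD4T mean and 215 to 397 for sex.

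With group means removed, same-numbered libraries of different groups had correlations of -0.64 to 0.69 (median 0.08, 84 pairs). Libraries of other numbers had correlations of -0.73 to 0.80 (median -0.03, 168 pairs). These values cannot decide whether title numbers pair the mice, because the libraries also differ in tissue makeup. With the replicate block, Bace1 kept its call in FAD4T females (0.86, adjusted p = 0.0402), 1 member was called there and 4 in the 8-month mean. No paired analysis was possible because the groups share no numbers at 18 against 2 months.

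Counts over all genes moved more. DESeq2 called 98 and 287 genes in FAD4T males and females of 2 months and 311 in the mean, where edgeR called 0. The 18 against 2 month count went from 5840 to 1776 with the other wild-type males. At 8 against 2 months in FAD4T females it went from 1874 to 3625 with DESeq2 and to 0 and 74 without thymocyte-rich and low-Tg libraries, and in the mean from 6027 to 671 and 1528. Groups of 3 limit the precision of all these values.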
